A study of Mus musculus with 5 samples.

Results

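The genes described here encode the protein subunits of the mitochondrial respiratory chain and ATP synthase, in retinas of C57BL/6 mice with optic nerve crush (ONC). They were chosen by symbol from the 25655 genes of the count table, and 101 genes matched. Of these, 13 are encoded by the mitochondrial genome (the mt- genes) and 88 by nuclear genes. This gene group was selected on earlier Sorbinil against DMSO values of the same retinas. The differences between the groups are therefore given as a description. Where members are counted against a threshold, the counts come from a fit across all genes and add no independent evidence.

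All 5 mice were wildtype, 8 to 10 weeks old when the experiment began, and carried a crush of the left optic nerve. In 2 mice Sorbinil, an inhibitor of aldose reductase, was injected at 10 mg/kg from 24 h before the crush and then daily, and 3 mice received the vehicle DMSO. The injured retina was taken at day 7 and its total RNA was sequenced. Whole retina was used, and Sorbinil replicate 2 was not analysed here, so that Sorbinil is represented by replicates 1 and 3. The counts hold no column for Sorbinil replicate 2. The paper states that a Sorbinil replicate was excluded after a principal component analysis. No uninjured retina was compared.

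The respiratory chain passes electrons from NADH and succinate to oxygen through complexes I to IV and pumps protons, and complex V uses the proton gradient to make ATP. Complexes I, III, IV and V are built from subunits of both genomes, while complex II is encoded wholly in the nucleus. In retina, photoreceptor inner segments are packed with mitochondria, and retinal ganglion cells and their axons also depend on oxidative metabolism.

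Counts on genes totalled between 56096541 and 90288552 per retina, and no 2 retinas were alike within sampling noise. In a principal component analysis of all tested genes, Sorbinil replicate 1 stood apart at 75.8 on the first component (65.4% of the variance), with the other 4 retinas between -28.9 and -7.64. Marker genes of inner retinal neurons, glia and vessels were lower in that retina and rod markers were higher, with values given below beside the members. Results for the 2 Sorbinil retinas are therefore given separately. Levels are in CPM (counts per 1000000 counts), scaled by the TMM (trimmed mean of M-values) method, and log2 differences are relative to the mean of the 3 DMSO retinas unless stated.

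The mt- genes lie close together on a circular genome of 16299 bases, and some share bases. In GRCm39, mt-Atp8 and mt-Atp6 overlap by 43 bases at chrM:7927-7969, and mt-Nd4l and mt-Nd4 by 7 bases at chrM:10167-10173. Both overlaps are shown on the plus strand, 5′ to 3′, with 15 bases on each side. A read that covers the capitals lies on both genes, and the counting rule for such reads is not given in the sources used here. The first stretch covers chrM:7912-7984 and the second chrM:10152-10188.
mt-Atp8/mt-Atp6: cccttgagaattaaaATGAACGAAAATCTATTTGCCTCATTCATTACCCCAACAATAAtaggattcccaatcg
mt-Nd4l/mt-Nd4: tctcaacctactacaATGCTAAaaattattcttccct
The capitals open with the ATG start codon of the downstream gene and end with the last base of the upstream gene. Levels of mt-Atp8 and mt-Nd4l are uncertain for this reason, since 43 of the 204 bases of mt-Atp8 and 7 of the 297 bases of mt-Nd4l are shared.

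For all 13 mt- genes, both Sorbinil retinas lay above each of the 3 DMSO retinas. Over all 14992 genes tested, 12.8% had Sorbinil values above every DMSO value. The log2 fold changes ran from 0.60 for mt-Co3 to 1.19 for mt-Nd2 and mt-Nd5, with a median of 1.00, against a median of -0.01 over all genes tested. The study took genes with an unadjusted p of 0.1 or less that changed 2-fold or more, and by this rule 6 of the 13 were called higher (mt-Nd1, mt-Nd2, mt-Nd4l, mt-Nd4, mt-Nd5 and mt-Cytb), where 0.36% of all genes tested were. Without DMSO replicate 1, the lowest retina for each mt- gene, 1 of the 13 was called, and 3 were called with library size as the only scaling, since many changes lie near 2-fold. None of the 13 was called lower, against 1.35% of all genes tested. After Benjamini-Hochberg adjustment in edgeR's quasi-likelihood test, 0 of the 14992 genes had an adjusted p under 0.05, and the smallest was 0.758. At an unadjusted p under 0.05 there were 751 genes, and the likelihood ratio test of edgeR and the Wald test of DESeq2 gave 14 and 21 genes at an adjusted p under 0.05.

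**Figure D1:**
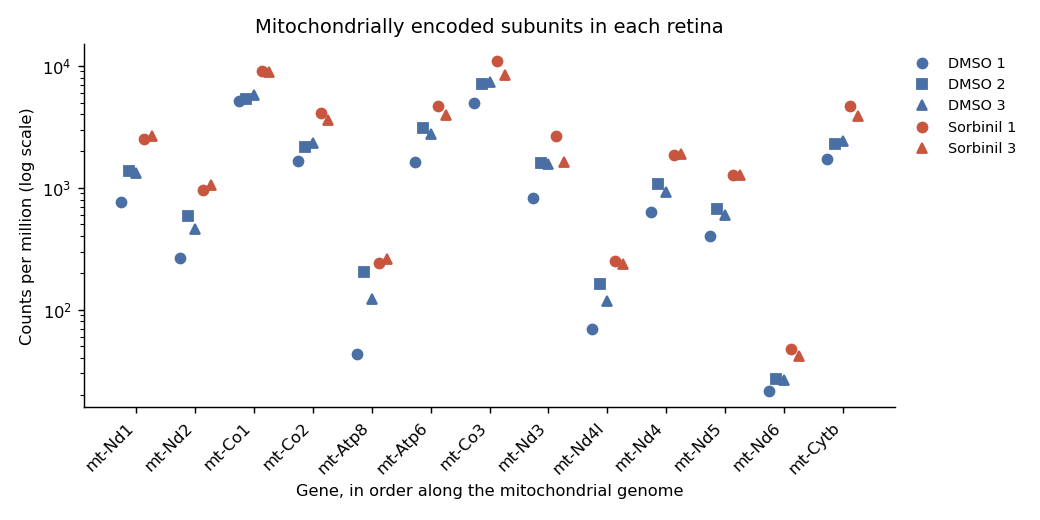
Level of each mt- gene in CPM (log axis) in the 5 retinas, with genes in their order along the mitochondrial genome; circles, squares and triangles are replicates 1, 2 and 3 (DMSO blue, Sorbinil red). Both Sorbinil points lie above the 3 DMSO points for all 13 genes, with the smallest gap at mt-Nd3, where Sorbinil replicate 3 was at 1627 CPM and DMSO replicate 2 at 1586 CPM.

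In complex I, whose mt- subunits form the proton-pumping membrane arm, mt-Nd5 was at 399, 672 and 595 CPM in DMSO replicates 1, 2 and 3. In Sorbinil replicates 1 and 3 mt-Nd5 was at 1264 and 1278 CPM. The Sorbinil values were close to each other, and the log2 fold change was 1.19 (SE 0.25). For mt-Nd1, the DMSO values were 772, 1366 and 1319 CPM and the Sorbinil values 2526 and 2638 CPM, a log2 fold change of 1.16 (SE 0.29). For mt-Nd2, they were 267, 588 and 460 CPM against 956 and 1047 CPM, a log2 fold change of 1.19 (SE 0.33). DMSO replicate 1 was the lowest retina for each of these genes. The gene mt-Nd4 was at 638, 1072 and 920 CPM under DMSO and at 1858 and 1884 CPM under Sorbinil, and its log2 fold change was 1.09 (SE 0.25). Its neighbour mt-Nd4l, read from the same transcript, was at 69.0, 161 and 117 CPM under DMSO and at 249 and 237 CPM under Sorbinil.

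The gene mt-Nd3 differed from the other complex I genes in that the Sorbinil retinas were far apart. It was at 826, 1586 and 1571 CPM in the DMSO retinas, at 2678 CPM in Sorbinil replicate 1 and at 1627 CPM in Sorbinil replicate 3. Its log2 difference was 1.07 in Sorbinil replicate 1 but 0.36 in replicate 3. With library size as the only scaling 12 in place of 13 mt- genes did not overlap. The gene that then overlapped was mt-Atp8, not mt-Nd3. The gene mt-Nd6 is the only protein gene of the opposite strand, and its 3′ end overlaps that of mt-Nd5. It was the mt- gene with the lowest level, at 21.5, 26.8 and 26.5 CPM under DMSO and 47.7 and 41.5 CPM under Sorbinil.

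Complex III has a single mitochondrial subunit, cytochrome b, which holds both haems of the b type. Its gene mt-Cytb was at 1737, 2267 and 2404 CPM in DMSO retinas and at 4716 and 3851 CPM in Sorbinil retinas. Its log2 fold change was 1.00 (SE 0.24), and both Sorbinil retinas were above all DMSO retinas by more than the range of the DMSO values.

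Complex IV, cytochrome c oxidase, has 3 mitochondrial subunits that form its catalytic core. The gene mt-Co1 was the steadiest mt- gene within groups, at 5150, 5394 and 5788 CPM under DMSO and at 9007 and 8993 CPM under Sorbinil. Its log2 fold change was 0.73 (SE 0.24). The gene mt-Co2 was at 1658, 2177 and 2345 CPM against 4094 and 3616 CPM, a log2 fold change of 0.90 (SE 0.23). The gene mt-Co3 was at 4930, 7163 and 7336 CPM against 11076 and 8491 CPM, a log2 fold change of 0.60 (SE 0.31). This was the smallest change among the mt- genes, although mt-Co3 had the highest mean level in each group. In DMSO replicate 1 and Sorbinil replicate 3, mt-Co1 was higher than mt-Co3.

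In complex V, mt-Atp6 encodes the membrane subunit that borders the proton channel, and mt-Atp8 a small subunit of the stator. The gene mt-Atp6 was at 1639, 3102 and 2750 CPM under DMSO and at 4658 and 3958 CPM under Sorbinil, a log2 fold change of 0.79 (SE 0.32). The gene mt-Atp8 was at 43.3, 206 and 123 CPM against 242 and 259 CPM. Relative to its mean, it spread more widely over the DMSO retinas than any other mt- gene, and its log2 fold change of 1.01 had an SE of 0.58 and was not called. Both genes share a transcript, and the ratio of mt-Atp8 to mt-Atp6 counts was 0.0264, 0.0663 and 0.0448 in DMSO retinas and 0.0519 and 0.0654 in Sorbinil retinas. These ratios overlapped between the groups.

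The shares of the mt- genes within the mitochondrial total showed which genes differed from each other, free of the scaling between libraries. Complex I genes took 16.5%, 21.2% and 19.4% of the mt- counts in DMSO retinas and 22.1% and 23.1% in Sorbinil retinas. Complex IV genes took 64.7%, 57.1% and 60.1% under DMSO and 55.7% and 55.6% under Sorbinil. In both cases the Sorbinil retinas lay beyond the DMSO retinas, by less than the DMSO retinas spread. The complex III gene mt-Cytb took 9.57%, 8.79% and 9.33% against 10.9% and 10.2%. Its groups did not overlap either, and Sorbinil replicate 1 lay above the DMSO retinas by more than they spread. Complex V genes took 9.27%, 12.8% and 11.2% against 11.3% and 11.1%, which overlapped. The ratio of mt-Nd6 to the 12 genes read in the other direction differed by less than the spread between DMSO retinas, at -9.85 ± 0.12 (SD, n = 3) on the log2 scale under DMSO and -9.83 ± 0.01 (SD, n = 2) under Sorbinil. Counts from both strands thus differed between the groups by a like amount, 0.84 in log2 fold change (SE 0.15) for mt-Nd6.

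The nuclear-encoded members showed no such shift between groups. Of the 88, 83 passed the filter on low counts. The other 5 (Cox7b2, Cox8c, Cox5b-ps, Ndufb11b and Atp5o_1) had at most 6 counts in any retina. Over the 83, the median log2 fold change was 0.02, with a range from -0.70 for Ndufa4l2 to 0.56 for Cox7a1. With library size as the only scaling, which moved the median of all genes to -0.11, the nuclear-encoded median was -0.10. None was called in either direction. Only Cox7a1 (Sorbinil higher) and Ndufs7, Sdhb and Atp5d (Sorbinil lower) had groups that did not overlap, where 12.8% of all genes tested were above and 10.5% below every DMSO value. Ndufs7 and the set of these 4 genes were picked out after their values were seen.

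The 2 Sorbinil retinas moved in opposite directions. In Sorbinil replicate 1, 68 of the 83 nuclear-encoded members were above the DMSO mean, as were 51.1% of all genes tested, and the median was 0.21. Above all 3 DMSO retinas there were 47 of the 83, against 43.4% of all genes tested. In Sorbinil replicate 3, 9 of the 83 were above the DMSO mean, against 48.7% of all genes tested, and the median was -0.18. Below all 3 DMSO retinas there were 40 of the 83, against 29.1% of all genes tested. In the DMSO retinas the medians were -0.20, 0.02 and 0.17 for replicates 1, 2 and 3. The medians of the mt- genes in the same order of retinas were -0.44, 0.31 and 0.18 under DMSO and 1.12 and 0.86 under Sorbinil. Thus Sorbinil replicate 3 combined mt- levels above every DMSO retina with nuclear-encoded levels mostly below the DMSO mean.

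**Figure D2:**
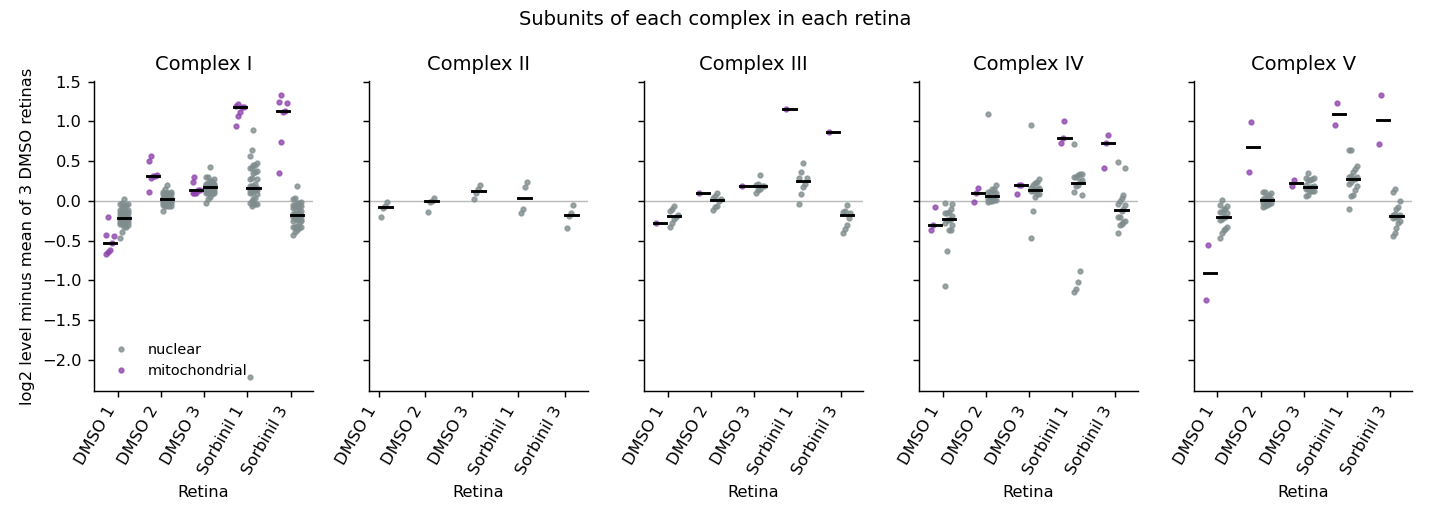
Log2 level of each tested member minus the mean of the 3 DMSO retinas, by complex and retina; each dot is a gene (purple mitochondrial, grey nuclear) and each black bar the median of its dots. In all 4 complexes that have mt- genes, the purple medians are higher in the 2 Sorbinil retinas than in the 3 DMSO retinas, whereas the grey medians are above 0 in Sorbinil replicate 1 and below 0 in Sorbinil replicate 3.

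Complex by complex, the difference between the median log2 fold change of the mt- genes and that of the nuclear-encoded genes was 1.11 in complex I (7 against 38 genes). It was 0.99 in complex III (1 against 8), 0.70 in complex IV (3 against 16) and 0.82 in complex V (2 against 17). The sign was the same in all 4 complexes. Their mt- genes belong to the same genome and were selected on this contrast, so the 4 signs are not independent. Without Sorbinil replicate 1 the differences were 1.29, 1.04, 0.90 and 1.06 in complexes I, III, IV and V. Without Sorbinil replicate 3 they were 0.95, 0.90, 0.56 and 0.66. The excess of mt- over nuclear-encoded changes was thus present with each Sorbinil retina alone, and was larger with replicate 3.

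The ratio of mt- to nuclear-encoded counts can be read inside each retina and does not depend on scaling between libraries. Summed mt- counts were 2.48, 3.21 and 2.84 times the summed nuclear-encoded counts in DMSO retinas and 4.56 and 5.44 times in Sorbinil retinas. On the log2 scale this was 1.50 ± 0.18 (SD, n = 3) under DMSO and 2.32 ± 0.18 (SD, n = 2) under Sorbinil, a difference of 0.82 or 1.76-fold. Of all counts, the mt- genes took 1.94%, 2.66% and 2.55% under DMSO and 3.70% and 4.05% under Sorbinil. The nuclear-encoded members took 0.782%, 0.830% and 0.899% under DMSO and 0.812% and 0.746% under Sorbinil. The shares of mt- genes did not overlap between groups. For the nuclear-encoded members, Sorbinil replicate 1 lay among the DMSO retinas and replicate 3 below them.

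By complex, the ratio of mt- to nuclear-encoded counts was 1.50, 2.44 and 1.95 in DMSO retinas and 3.51 and 4.52 in Sorbinil retinas for complex I. For complex III it was 2.67, 3.22 and 2.90 against 5.63 and 6.30. The complex III ratio was 2.04-fold higher under Sorbinil, and that of complex I 2.07-fold higher. For complex IV it was 11.7, 12.4 and 11.95 against 17.6 and 20.9, and for complex V 0.524, 0.968 and 0.741 against 1.20 and 1.42. Complex IV had the tightest DMSO values, with an SD of 0.04 on the log2 scale.

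**Figure D3:**
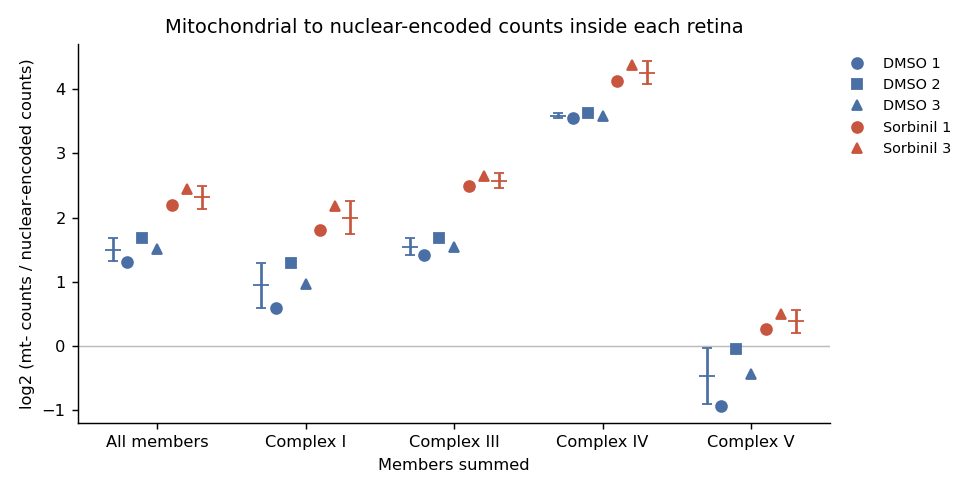
Log2 ratio of summed mt- counts to summed nuclear-encoded counts in each retina, for all members and for each complex with subunits of both genomes; symbols are the retinas, and bars with caps are the group mean and SD (n = 3 DMSO, n = 2 Sorbinil). Sorbinil retinas lie above the DMSO retinas in every column, with Sorbinil replicate 3 above replicate 1.

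Among the nuclear-encoded complex I genes, the median log2 fold change was -0.01, with 18 of 38 above 0. Ndufb1, a small accessory subunit, was at 30.4, 43.5 and 56.7 CPM in DMSO retinas and at 78.1 and 41.6 CPM in Sorbinil retinas. It had the highest log2 fold change of the group, 0.46 (SE 0.35), but Sorbinil replicate 3 lay inside the DMSO range. Ndufb8 was at 132, 158 and 192 CPM under DMSO, at 247 CPM in Sorbinil replicate 1 and at 127 CPM in replicate 3, so the 2 Sorbinil retinas fell on either side of all DMSO values. Ndufb8 shares exon bases with a predicted gene model on the same strand. Ndufa10, an accessory subunit of the matrix side, was at 131, 128 and 144 CPM against 131 and 99.99 CPM. Ndufs7, a core subunit that carries an iron-sulfur cluster, was at 37.4, 36.9 and 36.4 CPM against 35.8 and 28.0 CPM, so that replicate 1 lay just below the DMSO values.

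Ndufa4 carries a complex I name, but its protein is now assigned to cytochrome c oxidase. By symbol, Ndufa4 and Ndufa4l2 are counted in complex I and not in complex IV in all values by complex given here. Ndufa4 was at 117, 150 and 180 CPM in DMSO retinas and at 217 and 126 CPM in Sorbinil retinas. Its paralog Ndufa4l2 is induced by hypoxia and was the nuclear-encoded member with the lowest log2 fold change, -0.70 (SE 0.66). Ndufa4l2 had 75, 63 and 48 counts under DMSO, 8 counts in Sorbinil replicate 1 and 56 counts in replicate 3. Only Sorbinil replicate 1 was low, and it was 2.21 below the DMSO mean on the log2 scale, while replicate 3 was 0.03 above it.

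Complex II, succinate dehydrogenase, has no mt- gene and also serves the tricarboxylic acid cycle. The flavoprotein gene Sdha was at 271, 292 and 288 CPM in DMSO retinas and at 265 and 275 CPM in Sorbinil retinas. The iron-sulfur gene Sdhb was at 42.3, 38.7 and 47.1 CPM against 38.4 and 37.2 CPM. The groups did not overlap for Sdhb, although the log2 fold change was only -0.18 (SE 0.13). The membrane anchors Sdhc and Sdhd had log2 fold changes of 0.01 (SE 0.15) and -0.03 (SE 0.21). The median over the 4 genes was -0.05, close to that of all genes tested.

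In complex III, the median of the 8 nuclear-encoded genes was 0.02. The core genes Uqcrc1 and Uqcrc2 had log2 fold changes of -0.07 (SE 0.21) and -0.13 (SE 0.13). Uqcrc1 was at 206, 204 and 254 CPM under DMSO and at 249 and 172 CPM under Sorbinil, where replicate 3 was the lowest of the 5 retinas. The hinge protein gene Uqcrh was at 70.3, 87.8 and 110 CPM under DMSO, and at 122 and 80.0 CPM under Sorbinil. The small subunit genes Uqcr11 and Uqcrq had log2 fold changes of 0.08 and 0.02. All 8 genes were below the DMSO mean in Sorbinil replicate 3, and 7 of 8 were above it in replicate 1.

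In complex IV, several subunits exist as a widely expressed form and a second form of muscle, lung or testis. Cox4i2, the form induced by low oxygen and found in vessel wall cells, was at 18.8, 19.2 and 19.9 CPM in DMSO retinas, at 9.47 CPM in Sorbinil replicate 1 and at 19.3 CPM in replicate 3. Its widely expressed counterpart Cox4i1 was at 196, 232 and 274 CPM under DMSO and at 294 and 202 CPM under Sorbinil. The ratio of Cox4i2 to Cox4i1 counts was 0.0962, 0.0825 and 0.0724 in DMSO retinas, 0.0322 in Sorbinil replicate 1 and 0.0955 in replicate 3. Only Sorbinil replicate 1 was low, and replicate 3 lay among the DMSO values. Cox6b2 behaved in a like way, at 2.66, 3.00 and 2.47 CPM against 1.45 and 2.84 CPM, while its counterpart Cox6b1 was at 90.6, 98.1 and 103 CPM against 102 and 73.2 CPM.

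The other muscle-type forms were near the limit of the counts. Cox7a1 was at 0.879, 1.31 and 1.28 CPM under DMSO and at 1.88 and 1.53 CPM under Sorbinil, and was the only tested form of this kind that was higher in both Sorbinil retinas. Cox8b ranged from 17 counts in Sorbinil replicate 1 to 80 counts in DMSO replicate 3, and Cox6a2 from 3 to 30 counts. Their counterparts Cox7a2, Cox8a and Cox6a1 had log2 fold changes of -0.04, 0.12 and 0.10, and Cox7b one of 0.03. Each was above the DMSO mean in Sorbinil replicate 1 and below it in replicate 3. Cox7a2l, which helps to join complexes III and IV, followed the same course, at 206 and 137 CPM in Sorbinil retinas and at 147, 166 and 180 CPM under DMSO. The small subunit gene Cox6c was at 54.7, 74.7 and 85.6 CPM under DMSO and at 86.9 and 72.5 CPM under Sorbinil.

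In complex V, Atp5b and Atp5a1 encode the beta and alpha subunits of the catalytic head. Atp5b was at 1327, 1386 and 1585 CPM in DMSO retinas and at 1722 and 1178 CPM in Sorbinil retinas. The Sorbinil retinas lay above and below all DMSO retinas, and the log2 fold change was 0.02 (SE 0.23). Atp5a1 had the same pattern, at 709, 709 and 804 CPM against 812 and 652 CPM. Atp5d, the delta subunit of the central stalk, was at 124, 116 and 128 CPM against 115 and 103 CPM, with a log2 fold change of -0.18 (SE 0.12). Atp5o_2, 1 of 2 entries for the stalk subunit OSCP, was at 113, 118 and 132 CPM against 126 and 88.8 CPM, and could share reads with its copy. The small membrane subunit genes Atp5k and Atp5md had the highest changes, 0.38 (SE 0.28) and 0.30 (SE 0.29), and DMSO replicate 1 was the lowest retina for both.

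Core and accessory nuclear-encoded subunits were also compared, since core subunits carry the catalytic reaction and accessory subunits surround them. The median log2 fold change was -0.01 over the 26 core genes and 0.06 over the 51 accessory genes. In Sorbinil replicate 3, 21 of 26 core genes were below all DMSO retinas, as were 18 of 51 accessory genes and 29.1% of all genes tested. The 6 tissue forms and associated factors had a median of -0.34. Coding length moved with these values: across the 77 core and accessory genes, Spearman's rho of coding length with the log2 difference was 0.60, -0.62 and -0.28 in DMSO replicates 1, 2 and 3. It was -0.40 and -0.26 in Sorbinil replicates 1 and 3. These genes share libraries and the DMSO mean, so the rho values are a description. The 21 genes with under 300 coding bases had a median of -0.28 in DMSO replicate 1 and 0.30 in Sorbinil replicate 1, and the part of length in the results was not tested.

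Levels per kilobase of coding sequence were compared within the DMSO retinas. The mt- genes had a median of 1204 CPM per kb and the nuclear-encoded members one of 151 CPM per kb, a ratio of 7.95. The highest mt- gene was mt-Co3 with 8261 CPM per kb, and the lowest was mt-Nd6 with 48.1. The next lowest, mt-Nd5, was at 304 CPM per kb, and was above mt-Nd6 by more than the spread within either. Among nuclear-encoded genes, Atp5b was highest with 901 CPM per kb, followed by Cox8a with 703 and Ndufa4 with 598. The ratio of the median mt- level to the median nuclear-encoded level was 4.19 in complex I, 9.31 in complex III, 14.6 in complex IV and 9.6 in complex V. Coding length leaves out untranslated regions, so that the levels of nuclear genes with long untranslated regions are set too high.

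**Figure D4:**
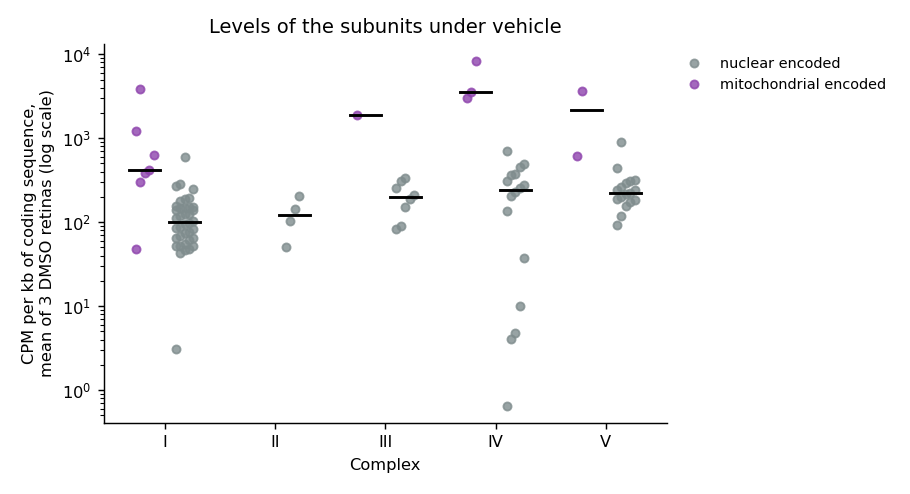
Level of each tested member in CPM per kb of coding sequence (log axis), as the mean of the 3 DMSO retinas, by complex and genome; black bars are medians. The mt- median lies above the nuclear-encoded median in complexes I, III, IV and V, and mt-Nd6 (48.1 CPM per kb) lies at the bottom of the mt- genes.

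The nuclear-encoded members moved largely together between retinas, with 2 of 83 above the DMSO mean in DMSO replicate 1 and 80 of 83 in DMSO replicate 3. Of all 14992 genes tested, 7479 and 7477 were above it in these retinas. The rod markers described below did likewise, with 0 and 15 of 15, and a part of shared regulation was not tested. Promoters of the nuclear-encoded members were searched for the binding cores of NRF1 and of the ETS family of regulators. GABP (NRF2 in the older sense) belongs to the ETS family. RefSeq promoter windows on GRCm38.p6, from 250 bases before to 50 bases after each start, were matched for 70 of the 88. The NRF1 core CGCATGCG, which reads the same on both strands, was present in 9 of the 70 (12.9%) and in 2.07% of all 27025 genes with a window. The ETS core CCGGAAG, or CTTCCGG on the other strand, was present in 17 of the 70 (24.3%) and in 9.93% of all genes. The 2 motifs do not overlap. The 70 count the same window for Atp5o_1 and Atp5o_2 and include the untested Cox7b2. The 27025 genes also include genes not tested here, so the shares do not compare members with other expressed genes. Stretches upstream of the start of 2 complex V genes that hold both cores, in capitals, are shown to give the letters in their setting. They are read 5′ to 3′ on the minus strand, at chr9:44920938-44920992 for Atp5l and chr16:84835021-84835133 for Atp5j.
Atp5l: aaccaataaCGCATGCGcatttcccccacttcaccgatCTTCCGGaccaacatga
Atp5j: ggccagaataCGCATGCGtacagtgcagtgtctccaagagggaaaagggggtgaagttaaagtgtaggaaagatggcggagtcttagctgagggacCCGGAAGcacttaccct
A match describes letters in this window and is not a binding site.

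Genes that serve the same complexes without being subunits were counted on lists. The counts above and below all DMSO values are to be read against 12.8% and 10.5% of all genes tested. Of 47 assembly factors tested, 0 were called in either direction, 3 were above and 4 below all DMSO values, and the median log2 fold change was 0.10. The highest was Coa6, a factor of copper delivery to complex IV, at 4.74, 5.24 and 5.62 CPM under DMSO and 8.24 and 5.66 CPM under Sorbinil. The lowest was Sco2, another copper chaperone, with -0.30 (SE 0.18). Cox11, also a copper chaperone, had 0.33 (SE 0.21), and Ndufaf2, an assembly factor of complex I, -0.16 (SE 0.20). Of 32 genes of mitochondrial DNA maintenance, transcription and RNA processing, 0 were called, 5 were above and 2 below all DMSO values, and the median was 0.12. Twnk, the mitochondrial DNA helicase, was at 11.2, 10.5 and 8.10 CPM against 14.5 and 11.3 CPM. Tefm, the transcription elongation factor of mitochondria, was at 5.76, 6.77 and 6.68 CPM against 10.9 and 5.80 CPM, which overlapped. At the other end of this list, Tbrg4, an RNA-binding protein of mitochondria, was at 19.7, 17.4 and 17.6 CPM against 15.8 and 14.4 CPM. Hsd17b10, a subunit of mitochondrial RNase P, was at 11.5, 11.6 and 11.8 CPM against 9.23 and 10.5 CPM, so that both genes were below all DMSO values.

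Of 10 nuclear regulators of respiratory genes, 0 were called, 5 were above and 1 below all DMSO values, and the median was 0.24. Ppargc1a, the coactivator of mitochondrial biogenesis, was at 59.9, 64.2 and 62.0 CPM in DMSO retinas and at 111 and 71.1 CPM in Sorbinil retinas. Sp1 was at 64.3, 62.2 and 58.2 CPM against 103 and 70.2 CPM. For both genes the Sorbinil replicates were above all DMSO retinas, with replicate 1 much further than replicate 3. The lowest genes were Pprc1, a relative of Ppargc1a, at -0.18 (SE 0.16), and the nuclear receptor gene Esrra at -0.10 (SE 0.12). Esrra was the 1 gene below all DMSO values, but Sorbinil replicate 1 (23.476 CPM) was practically level with DMSO replicate 1 (23.4765 CPM). The medians of this list were 0.42 in Sorbinil replicate 1 and -0.02 in replicate 3. Of 78 mitochondrial ribosomal protein genes, 0 were called, 2 were above and 5 below all DMSO values, and the median was 0.03. Their medians in Sorbinil replicates 1 and 3 were 0.18 and -0.12, close to those of the nuclear-encoded members. The lowest changes were those of Mrpl48 and Mrpl4, -0.31 (SE 0.11) and -0.26 (SE 0.13), and the highest those of Mrpl32 and Mrpl14, 0.33 (SE 0.26) and 0.30 (SE 0.29).

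Of 14 tricarboxylic acid cycle enzymes, 0 were called, 0 were above and 4 below all DMSO values, and the median was -0.11. Among them Idh3b, a subunit of isocitrate dehydrogenase, was at 87.6, 82.8 and 91.2 CPM under DMSO and at 67.7 and 69.2 CPM under Sorbinil. Its partner Idh3a was at 127, 124 and 132 CPM against 170 and 127 CPM. Suclg2, a subunit of succinyl-CoA ligase, had the lowest log2 fold change, -0.56 (SE 0.36), and Dld one of 0.09 (SE 0.15). The 7 electron carriers and subunits that the symbol rule missed, among them cytochrome c and cytochrome c1, had a median of 0.05. Their lowest changes were -0.03 for Dmac2l and 0.00 for Etfb, and their highest 0.28 for Etfa and 0.22 for Etfdh. On none of these lists was a gene called, against 0.36% higher and 1.35% lower of all genes tested.

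Rod and cone markers rose and fell with the nuclear-encoded members across the retinas, while the other marker lists did not. No marker list followed the mt- medians. The 15 rod markers, led by rhodopsin, had medians of -0.15, 0.01 and 0.14 in DMSO replicates 1, 2 and 3, of 0.56 in Sorbinil replicate 1 and of -0.34 in Sorbinil replicate 3. The nuclear-encoded medians put the 5 retinas in the same order as the rod medians, except that the lowest retinas, Sorbinil replicate 3 and DMSO replicate 1, changed places. The summed level of the rod list ranged from 87490 to 104454 CPM under DMSO and was 144360 and 73997 CPM in Sorbinil replicates 1 and 3. The 10 cone markers had medians of 0.45 and -0.22 in the Sorbinil retinas. In Sorbinil replicate 3, where the rod and cone lists were below the DMSO mean, the mt- genes were above all DMSO retinas. In whole retina, fewer cells of a type and less RNA per cell cannot be told apart.

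Markers of inner retinal neurons and glia were lowest in Sorbinil replicate 1. Their medians there were -1.23 for bipolar cells, -1.31 for amacrine and horizontal cells, -1.30 for retinal ganglion cells, -1.44 for Müller glia and -0.98 for microglia. In Sorbinil replicate 3 the same lists had medians between -0.23 and 0.19. The 14 markers of endothelium and pericytes had medians of -1.82 and -0.45, and 5 of them were called lower, against 1.35% of all genes tested. Summed, they were at 378 to 578 CPM under DMSO and at 192 and 479 CPM under Sorbinil. The retina in which these markers were lowest was the one with the low Ndufa4l2 and Cox4i2 values. The 9 pigment epithelium markers differed most between DMSO retinas, with medians of -0.41, -0.50 and 0.90. No marker on these lists was at 0 in all retinas, and the part of cell composition in the results of the members was not tested.

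**Figure D5:**
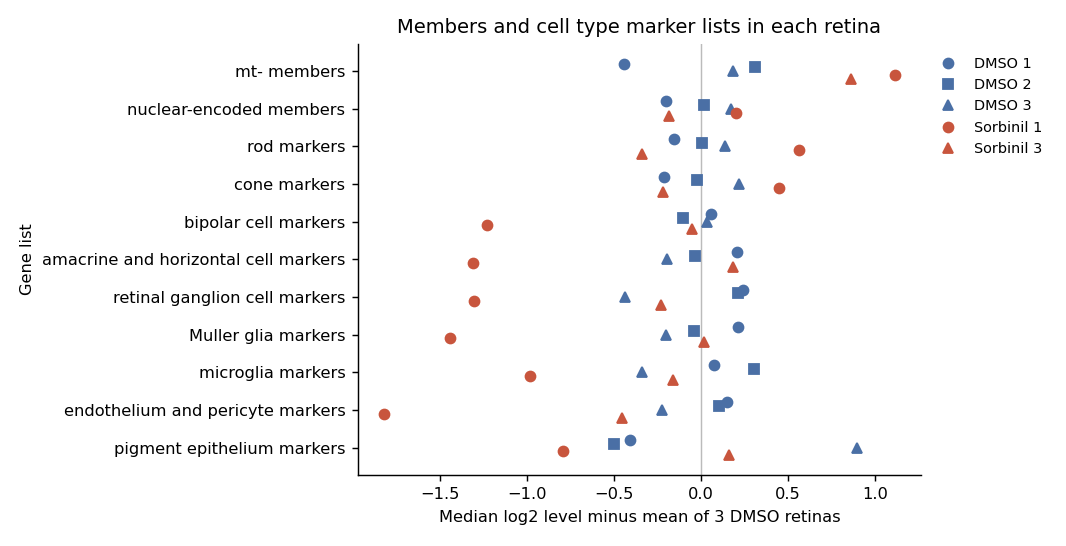
Median log2 level minus the mean of the 3 DMSO retinas, for the mt- members, the nuclear-encoded members and the 9 marker lists, in each retina (DMSO blue, Sorbinil red; circles, squares and triangles are replicates 1, 2 and 3). The mt- medians are 1.12 and 0.86 in the Sorbinil retinas, whereas the nuclear-encoded, rod and cone medians are positive in Sorbinil replicate 1 and negative in replicate 3.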

How the data were processed

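Total RNA of 5 injured retinas was sequenced with a stranded kit. The authors trimmed the reads, mapped them to GRCm39 in CLC Genomics Workbench v22 and deposited whole-number counts per gene, not normalized. The treatment of reads that fit several genes is not given in the sources used here. The paper and the labels name different kits and RNA amounts. There were no molecular identifiers, and counting intervals would understate the error.

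Columns were matched to retinas by name, and 0 value columns were left out. Genes passing filterByExpr (edgeR 4.0.16, minimum count 10, R 4.3.3) were scaled by TMM and fitted with glmQLFit and glmQLFTest across all 14992 genes, with Benjamini-Hochberg adjustment. Log2 differences used CPM with a prior count of 2. The steps were tested on simulated data. The members, gene lists and tests were chosen with earlier results of these data known. Named genes were all mt- and Sdh members, called members, the 2 highest and 2 lowest changes and 2 highest levels of each complex, tissue forms with their counterparts, and 2 genes at each end of each pathway list. Positions and coding lengths came from GENCODE vM39 (the longest CCDS coding sequence, or else the canonical transcript).

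Alternatives were DESeq2 1.42.0 size factors and Wald test, upper-quartile and library-size scaling, leaving mt- genes out of the library sizes, other filters and thresholds, edgeR's likelihood ratio test, the replicate number as a block, and leaving out each retina.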

Additional observations from a re-analysis of the deposited data

How the results depend on the processing

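Depth and group size limit these values: with 3 and 2 retinas there are 10 groupings, so an exact two-sided permutation test cannot go below 0.1, and members with few counts, such as Cox6a2, are imprecise.

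The median log2 fold change of the mt- genes was between 0.89 and 1.06 under the scalings, filters, tests and the replicate block, and between 0.77 and 1.05 with 1 retina left out. The nuclear-encoded median was between -0.10 and 0.02, and between -0.18 and 0.19 with 1 retina left out. DMSO and Sorbinil retinas share replicate numbers 1 and 3, which mark no common animal or batch in the labels, and the deviations of same-numbered retinas correlated at -0.24 and -0.12. With the replicate block the mt- median was 1.06, the nuclear-encoded median 0.00, and the differences between them 1.36, 1.05, 0.69 and 1.32 in complexes I, III, IV and V, with 50 genes called higher and 153 lower.

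The complex IV difference ranged from 0.56 to 0.90 with 1 retina left out. The log2 ratio of mt- to nuclear-encoded counts differed by 1.00 when log2 CPM was averaged over genes in place of summing, by 0.79 to 0.89 with 1 mt- gene left out, and by 0.69 to 0.94 with 1 retina left out. The nuclear-encoded members above all DMSO values numbered 1 to 47 with 1 retina left out, 47 of them without Sorbinil replicate 3 (43.0% of all genes tested) and 4 without DMSO replicate 3 (19.2%). Those below numbered 3 to 39, with 39 without Sorbinil replicate 1 (27.6% of all genes tested), 11 without DMSO replicate 1 (12.3%) and 22 with library-size scaling (13.5%). A Sorbinil group of 1 retina overlaps less often by construction, and its spread is taken from the DMSO retinas.

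Over all genes, 33 were called higher with library-size scaling, 115 without a filter, and 29 with at least 10 counts in every retina. With no fold limit 1047 were higher and 649 lower, and 0 passed an adjusted p under 0.05 in edgeR's quasi-likelihood test, against 4 with the replicate block and 5576 without Sorbinil replicate 3. With at least 10 counts in every retina 119 were lower, and at an unadjusted p of at most 0.05, 129. With 1 retina left out, 35 (without DMSO replicate 1) to 247 were higher and 129 (without DMSO replicate 1) to 2656 lower, the largest counts being without Sorbinil replicate 3, and 133 were lower without DMSO replicate 2. The mt- genes called higher numbered 3 to 7 over the other alternatives, and 1 to 7 with 1 retina left out. The likelihood ratio test leaves a log2 fold change almost unchanged by construction, and the replicate SD is wide for some members (0.94 for mt-Atp8). With these limits, 614 of 641 alternatives over 46 named members moved the log2 fold change by less than the replicate SD. Of the 27 that moved it by more, 24 left out Sorbinil replicate 1 or 3. The cause of these differences was not tested.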
